A study of Saccharomyces cerevisiae x Saccharomyces paradoxus and Saccharomyces cerevisiae and Saccharomyces paradoxus with 10 samples.

Results

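Ribosome-protected fragments (RPF) of a yeast hybrid were compared between its parental alleles. RPF are the stretches of mRNA that a translating ribosome shields from nuclease, so the amount of RPF from an allele reflects its mRNA level and how densely that mRNA is occupied by ribosomes. The values came from 2 of the 10 samples of the series, the replicate hybrid RPF libraries, called biological replicates in the series text, each of which held 1 coverage column for the S. cerevisiae allele and 1 for the S. paradoxus allele of every gene, 4 columns in all. The hybrid was a diploid cross of S. cerevisiae BY4176, a MAT-alpha strain with a lys2 mutation and URA3 replaced by a KAN cassette, and S. paradoxus CBS432, a MATa strain with URA3 replaced by a HYG cassette. All groups used here, the hybrid and the parents, were grown from single colonies in YPD, a rich medium, at 30 °C for at least 16 hours and were collected in log phase at an OD600 of 0.5 to 0.7. No drug or nutrient treatment was given, and RPF were taken from 80S monosome fractions of a gradient. The mixed parental RPF samples, used only for comparison, held BY4176, labelled haploid, and CBS432, labelled diploid, and their labels name no URA3 allele.

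In an interspecific hybrid both alleles of a gene lie in 1 nucleus and meet the same transcription factors, the same RNA-binding proteins and the same ribosomes. A difference between the alleles therefore traces to sequence on or near the allele itself, which is called a difference in cis, whereas differences between separate parents also include those that act in trans. In RPF, a cis difference can come from promoters and mRNA stability or from untranslated and coding sequences that set ribosome loading. The values are means over a culture, so fewer cells that use an allele and less RNA per cell cannot be told apart.

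The deposited table held 4637 genes, and 4394 had a mean of at least 3 ppm over the 4 columns, where ppm relates the coverage of a gene to the total of its column, so that all columns have the same total. Each allele column of replicate 1 summed to 90.3 Mb and each of replicate 2 to 60.6 Mb, and since these are bases of coverage the number of reads is unknown. The labels were checked against genes that a diploid with both mating types should not use. Of 13 haploid and mating genes, 9 were in the table and 7 of them lay below 3 ppm, and their summed level was 13.3 to 23.5 ppm in each of the 4 hybrid RPF columns. In parental RPF the same genes summed to 4372 to 4883 ppm in the S. cerevisiae columns and 26.4 to 26.8 ppm in the S. paradoxus columns. URA3, the uracil synthesis gene replaced in the hybrid, had 8.04 and 11.6 ppm from the S. cerevisiae allele and 7.60 and 12.5 ppm from the S. paradoxus allele, against 164 to 204 ppm in parental RPF. The 4 hybrid columns thus lay far below the parental ones for URA3, and the mating genes were high in the S. cerevisiae parent alone.

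Of the 4394 genes tested, 853 (19.4%) differed between the alleles at an adjusted p under 0.05 by limma with Benjamini-Hochberg adjustment. Such a gene is said here to favour the allele with the higher value. The S. cerevisiae allele was favoured by 399 genes (9.08%) and the S. paradoxus allele by 454 (10.3%), and when each replicate was centred on its median ratio the split was 421 against 417. Most differences were modest, with a median fold of 1.78 among the called genes and 1.25 among all genes tested. A mean difference past 2-fold was found for 317 called genes, past 4-fold for 88 and past 8-fold for 34. The log2 allele ratio had the same sign in both replicates for 845 called genes and opposite signs for 8. Across all tested genes the replicate ratios differed by a median of 0.34 on the log2 scale and had a Pearson correlation of 0.57, given as a description across genes that share libraries and are not independent. Because 2 replicates leave 1 degree of freedom, the fitted standard error (SE) followed the coverage of a gene and not its own replicate difference. With replicate 2 alone, and the spread taken from parental RPF, 873 genes were called, 501 of them among the 853, and with replicate 1 alone 361, of which 270 were shared. A call from each replicate alone, as given for single genes and lists, refers to these fits.

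**Figure D1:**
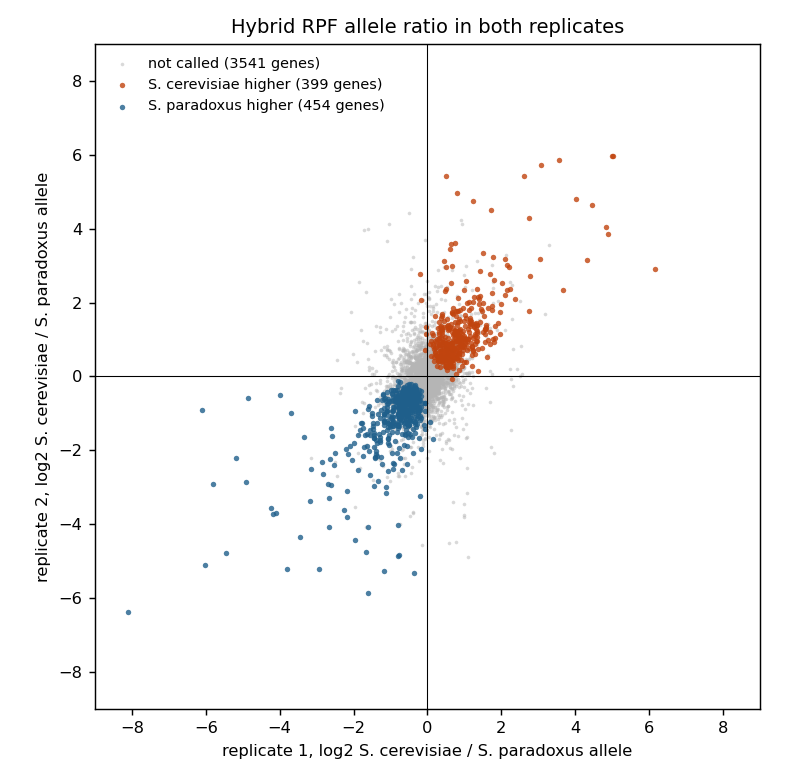
Log2 ratio of the S. cerevisiae over the S. paradoxus allele in hybrid RPF, replicate 1 on the x axis and replicate 2 on the y axis, for the 4394 genes tested. Orange points are the 399 genes that favour S. cerevisiae and blue points the 454 that favour S. paradoxus, and 845 of the 853 called genes have the same sign in both replicates.

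Among well-covered genes the largest difference in favour of S. cerevisiae was at TIR3, a cell wall mannoprotein gene. Its S. cerevisiae allele had 327.7 and 337.5 ppm in replicates 1 and 2, and its S. paradoxus allele 9.69 and 4.86 ppm. Both S. cerevisiae values lay far above both S. paradoxus values, with a mean log2 ratio of 5.49 (SE 0.19, adjusted p = 2.71e-165 by limma). HSP31, which encodes a methylglyoxalase of the stress response, had 161 and 157 ppm from S. cerevisiae against 23.0 and 23.6 ppm from S. paradoxus, a log2 ratio of 2.75 (SE 0.24). The replicates of HSP31 were nearly identical within each allele. At lower coverage CIN5, a transcription factor of the Yap family linked to salt and drug tolerance, had 97.7 and 85.9 ppm against 2.91 and 4.76 ppm, a log2 ratio of 4.44 (SE 0.33, adjusted p = 3.41e-38 by limma). Smaller differences in the same direction were measured for RDL1, a thiosulfate sulfurtransferase (log2 ratio 2.27), ATF2, an alcohol acetyltransferase (2.24), ETR1, an enoyl reductase of mitochondrial fatty acid synthesis (2.21), and APT2, a relative of adenine phosphoribosyltransferase (1.98). For each of these genes both S. cerevisiae values were above both S. paradoxus values, as can be expected of genes picked by their ratio.

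In favour of S. paradoxus, YPL088W, a putative aryl alcohol dehydrogenase gene, had 159 and 155 ppm from the S. paradoxus allele and 14.1 and 7.18 ppm from the S. cerevisiae allele. Its alleles did not overlap, and the log2 ratio was -3.89 (SE 0.25, adjusted p = 1.46e-49 by limma). YIR035C, a putative short-chain dehydrogenase gene, had 211 and 226 ppm from S. paradoxus against 45.3 and 57.9 ppm from S. cerevisiae, a log2 ratio of -2.08 (SE 0.21). HBN1, which encodes a protein similar to bacterial nitroreductases, had a log2 ratio of -2.14, but its replicates read -1.13 and -3.15. IES5, a subunit of the INO80 chromatin remodelling complex, had a log2 ratio of -1.81, and AAC3, a mitochondrial ADP/ATP carrier used without oxygen, -1.75. Also at lower coverage FAT3, required for fatty acid uptake, had 65.6 and 25.7 ppm from S. paradoxus and 0.996 and 0.446 ppm from S. cerevisiae. The S. cerevisiae values of FAT3 were close to nothing in both replicates, and its log2 ratio was -5.13 (SE 0.48). The 24 genes in the plot of the largest differences were picked by the mean ratio of these same 2 replicates. Agreement between their replicates is therefore no independent support.

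**Figure D2:**
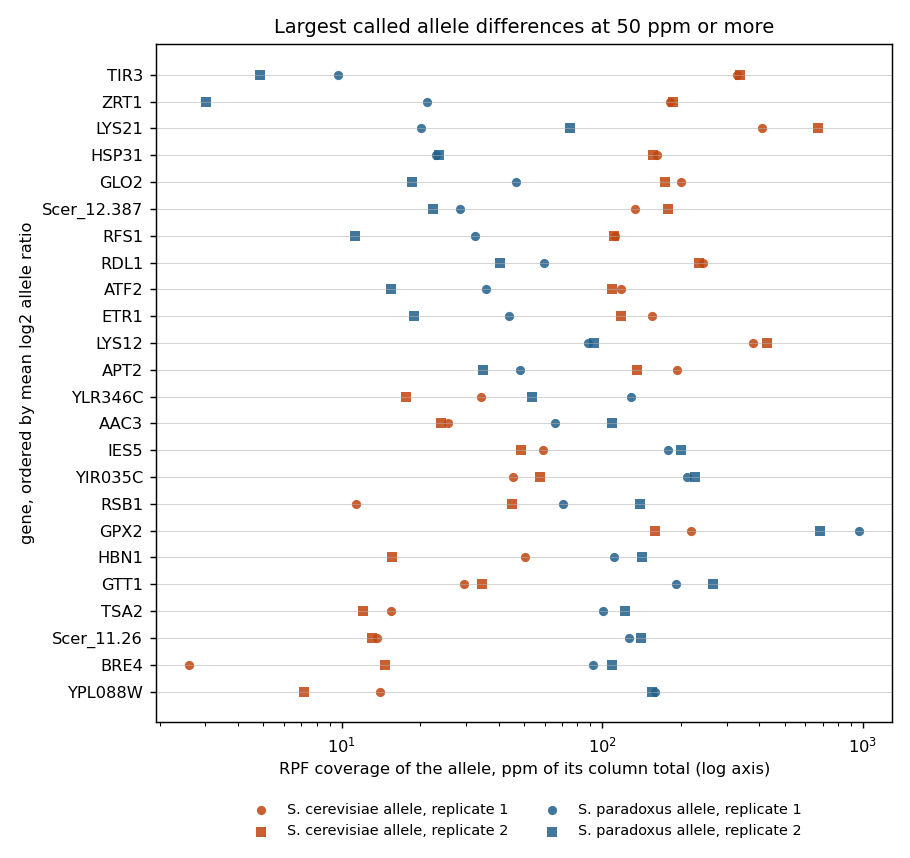
Coverage in ppm of the column total, on a log axis, of the 12 highest and 12 lowest log2 allele ratios among called genes with a mean of at least 50 ppm, no column at 0 and similar unmasked lengths of the alleles. Circles are replicate 1 and squares replicate 2. For every gene shown, both values of 1 allele lie above both values of the other, as for TIR3 with 327.7 and 337.5 against 9.69 and 4.86 ppm. The genes were picked by these ratios, so the separation is no further support.

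Lysine in yeast is made by the aminoadipate pathway, several of whose genes are bound by the activator Lys14. Of 9 lysine genes tested, 4 favoured the S. cerevisiae allele and 1 the S. paradoxus allele, against 19.4% called over all genes, and the median log2 ratio was 0.40 against -0.02. LYS21, a homocitrate synthase of the first step, had 410 and 672 ppm from S. cerevisiae and 20.2 and 75.3 ppm from S. paradoxus. The alleles were far apart in both replicates, with a log2 ratio of 3.73 (SE 0.16, adjusted p = 1.46e-111 by limma). LYS12, homoisocitrate dehydrogenase, had 377 and 428 ppm against 88.0 and 93.1 ppm, a log2 ratio of 2.15 (SE 0.17). LYS4, homoaconitase, had 319 and 352 ppm against 129 and 131 ppm, a log2 ratio of 1.36 (SE 0.17, adjusted p = 1.71e-13 by limma). These 3 genes were called in each replicate alone. ARO8, an aromatic aminotransferase that also acts in lysine synthesis, had a log2 ratio of 0.40 and was not called from either replicate alone, where it read 0.51 and 0.29. LYS20, the homocitrate synthase paralog of LYS21, had 217 and 214 ppm from S. cerevisiae and 212 and 253 ppm from S. paradoxus, values that overlap (log2 ratio -0.10, SE 0.17, adjusted p = 0.751 by limma). The late enzymes LYS1 and LYS9 had ratios of 0.47 and 0.16 that did not pass, as did the regulator LYS14 itself at 0.20. LYS5, which activates aminoadipate reductase, favoured S. paradoxus at -1.44, a call lost with replicate 1 alone (-1.07).

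Because some called and some uncalled lysine genes share a known activator, windows of 500 bases before all coding starts of the list were searched. The search used the R64 reference of S. cerevisiae and TCCNNNGGA, taken here as the pattern of Lys14 sites. This pattern reads the same on both strands. The motif was present in 5 of the 9 lysine windows and in 6.13% of 4173 windows of tested genes. The sites are given on the strand of the gene, with the 9 motif bases in capitals. A match describes the S. cerevisiae reference only, and the S. paradoxus sequence was not used here.
LYS21 site, chrIV:227053-227081, plus strand: gagttgaaatTCCGCTGGAaatcgtcacc
LYS12 site, chrIX:187796-187824, minus strand: ttcactttttTCCCGTGGAaaaatattct
LYS1 site, chrIX:420914-420942, minus strand: atttttttttTCCAGCGGAatttggaatt
LYS9 site, chrXIV:715595-715623, minus strand: gaatcgaaatTCCGTTGGAaaaattcgct
LYS21 and LYS12, with ratios of 3.73 and 2.15, and LYS1 and LYS9, which did not pass, each had the motif. LYS9 had a second copy that is not printed. LYS14, which also did not pass, had the motif in a site not printed. LYS4 and LYS20 had none in this window.

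Of 13 arginine genes tested, 2 favoured the S. cerevisiae allele and 4 the S. paradoxus allele, against 19.4% called over all genes. The median log2 ratio was -0.50. ARG5,6, the acetylglutamate kinase and reductase of the mitochondrial steps, had 91.6 and 82.8 ppm from S. cerevisiae against 237 and 288 ppm from S. paradoxus. The S. paradoxus values were higher in both replicates (log2 ratio -1.58, SE 0.19, adjusted p = 5.34e-15 by limma). ARG3, ornithine carbamoyltransferase, was thinly covered at 4.97 and 2.79 ppm against 30.4 and 13.4 ppm, a log2 ratio of -2.29 (SE 0.67, adjusted p = 0.00611 by limma). In the opposite direction CPA1, the small subunit of the arginine-specific carbamoyl phosphate synthetase, had 148 and 166 ppm against 87.1 and 53.3 ppm, a log2 ratio of 1.20 that was not called with replicate 1 alone (0.77). Of the 6 calls, 3 were made from each replicate alone.

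The other amino acid lists were closer to the background of 19.4%. Among 8 branched-chain genes, 3 were called, all higher for S. cerevisiae, led by BAT2, the cytosolic branched-chain aminotransferase. BAT2 had 1789 and 2019 ppm against 608 and 828 ppm, so that the alleles did not overlap and the log2 ratio was 1.42 (SE 0.12, adjusted p = 5.27e-32 by limma). Its mitochondrial paralog BAT1 had a ratio of -0.28 that did not pass (adjusted p = 0.0929 by limma). LEU3, the regulator of the pathway, had a ratio of 0.98 and ILV1, threonine deaminase, 0.50, and LEU3 was not called from replicate 1 alone nor ILV1 from either replicate alone. Of 17 histidine and aromatic genes, 2 favoured the S. cerevisiae allele and 1 the S. paradoxus allele, the latter being ARO3, a DAHP synthase of the shikimate entry step, with 191 and 170 ppm against 410 and 396 ppm (log2 ratio -1.16). HIS1, the first enzyme of histidine synthesis, had a ratio of 0.77, and TRP1 of tryptophan synthesis 1.34, and both calls were lost with replicate 1 alone (0.65 and 0.89). Of 19 sulfate and methionine genes 2 were called each way, and none of these 4 calls was made from each replicate alone. Of 14 purine and one-carbon genes 3 favoured the S. cerevisiae allele and 1 the S. paradoxus allele, again with none called from each replicate alone. Among 9 amino acid permeases only PTR2, a peptide transporter, was called (-0.63), and that call was lost with either replicate alone.

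Nitrogen catabolite genes let yeast use poor nitrogen sources and are repressed in rich medium through GATA-type regulators. Of 14 tested, 7 favoured S. cerevisiae and none favoured S. paradoxus, against 9.08% and 10.3% over all genes, and the median log2 ratio was 0.67. DUR1,2, urea amidolyase, had 64.3 and 61.0 ppm from S. cerevisiae against 4.58 and 11.6 ppm from S. paradoxus. The S. cerevisiae allele was many times higher in both replicates (log2 ratio 3.01, SE 0.38, adjusted p = 4.2e-13 by limma). CAR2, ornithine transaminase of arginine breakdown, had 1100 and 1039 ppm against 496 and 488 ppm, a log2 ratio of 1.12 (SE 0.13). GLN1, glutamine synthetase, had 2486 and 2890 ppm against 1300 and 1635 ppm, a log2 ratio of 0.88 (SE 0.11). CAR2 and GLN1 had no overlap between the alleles, and 3 of the 7 calls of the list were made from each replicate alone. The remaining 7 members did not pass, and their ratios ran from -0.72 to 1.53. The GATA motif GATAAG, searched on both strands, was found in 8 of the 14 windows of 500 bases and in 22.6% of all windows, and 3 of the 7 called genes had it. The window of DUR1,2, shown because that gene had the largest ratio of the list with all 4 columns covered, held 3 copies, of which the site nearest the coding start is given with the motif in capitals.
DUR1,2 site, chrII:642518-642545, minus strand: caagccattgaGATAAGacacgcagatg

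Among 19 genes of zinc, iron and copper uptake, 2 favoured the S. cerevisiae allele and 6 the S. paradoxus allele, against 19.4% called over all genes, and 2 of these 8 calls were made from each replicate alone. ZRT1, the high-affinity zinc transporter, had 182 and 186 ppm from S. cerevisiae and 21.1 and 3.01 ppm from S. paradoxus. The S. cerevisiae values were nearly equal while the replicate log2 ratios read 3.08 and 5.73, giving a log2 ratio of 4.40 (SE 0.24, adjusted p = 3.31e-72 by limma). That call was lost when the prior spread was fitted robustly, which lets outlying genes keep their own spread. The fits of each replicate alone take their spread from parental RPF. They therefore cannot show the disagreement between the hybrid replicates of ZRT1. SIT1, a transporter of ferrioxamine-bound iron, had 141 and 217 ppm against 340 and 409 ppm, a log2 ratio of -1.09 (SE 0.16), and was higher for S. paradoxus in both replicates. ARN2, another siderophore transporter, had the opposite sign at 1.14, a call lost with replicate 2 alone (0.95). The binding sequence of the zinc-responsive activator Zap1, ACCTT and AAGGT with 1 base of any kind between them, which reads the same on both strands, was searched because Zap1 is the known activator of ZRT1. It was found in 8 of 4173 windows (0.192%), and ZRT1 was the only one of the 19 list members with it.
ZRT1 site, chrVII:20765-20793, plus strand, motif in capitals: acatatttgACCTTGAAGGTcatggaaag

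Glutathione, thioredoxin and peroxide defence genes were called in both directions. Of 26 tested, 9 favoured the S. cerevisiae allele and 9 the S. paradoxus allele, against 19.4% called over all genes, and the median log2 ratio was -0.19. GTT1, a glutathione transferase of the endoplasmic reticulum, had 29.3 and 34.6 ppm from S. cerevisiae and 191 and 265 ppm from S. paradoxus. The alleles were well apart (log2 ratio -2.80, SE 0.21, adjusted p = 2.53e-37 by limma). TSA2, a cytosolic peroxiredoxin, had 15.5 and 12.02 ppm against 100.2 and 122 ppm, a log2 ratio of -2.97 (SE 0.29). GPX2, a phospholipid hydroperoxide glutathione peroxidase, had 218 and 159 ppm against 965 and 686 ppm, a log2 ratio of -2.13 (SE 0.14), and read -2.14 and -2.11 in the 2 replicates. In the other direction GLO2, a glyoxalase that clears methylglyoxal adducts of glutathione, had 201 and 173 ppm against 46.8 and 18.6 ppm, a log2 ratio of 2.64 (SE 0.22). For all 4 genes the alleles did not overlap, but they were named for the size of their ratios, so this only describes the values. Of the 18 calls, 8 were made from each replicate alone and 16 without pairing the alleles within a replicate.

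Many of these genes answer to Yap1, the oxidant-responsive activator, and the windows were searched on both strands for its site TTACTAA. It was found in 12 of the 26 windows and in 11.8% of all windows. Of the 9 genes in favour of S. cerevisiae 6 had it, and of the 9 in favour of S. paradoxus 5 had it. The sites of the 4 genes with values given here are printed on the strand of the gene, 1 of 2 copies for GPX2, with the motif, or its reverse complement TTAGTAA, in capitals.
GTT1 site, chrIX:424661-424689, minus strand: gctacggccatTTACTAAtgattttcacc
TSA2 site, chrIV:1366118-1366146, minus strand: agttttttttgTTAGTAAgcgctacgacg
GPX2 site, chrII:707100-707128, plus strand: acggacgttacTTACTAAatgtacgacga
GLO2 site, chrIV:1008763-1008791, plus strand: tcatcaattttTTAGTAAattcatatatt
The same letters thus stood before genes with ratios of -2.80, -2.97 and -2.13 and before GLO2 at 2.64.

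The RTA1 family encodes membrane proteins that handle toxic lipids. All 3 members in the table favoured S. paradoxus, against 10.3% of all genes tested. RTA1, which gives resistance to aminocholesterol, had 2.38 and 3.12 ppm from S. cerevisiae and 53.4 and 42.0 ppm from S. paradoxus, a log2 ratio of -3.89 (SE 0.46). RSB1, which exports sphingoid long-chain bases, had 11.33 and 44.9 ppm against 70.5 and 139 ppm, a log2 ratio of -2.10 (SE 0.28). YLR046C was listed at 0 and had 0.925 ppm in the S. cerevisiae columns but 138 and 119 ppm in those of S. paradoxus, so no fold is given. Within each replicate the S. paradoxus allele was the higher one for all 3 genes. Of 15 genes of drug and lipid efflux 2 were called each way, and all 4 calls were made from each replicate alone. The share called in this list was 26.7%, against 19.4% over all genes. BRE4, which affects sensitivity to brefeldin A, had 2.60 and 14.6 ppm against 92.3 and 109 ppm, a log2 ratio of -3.88 (SE 0.31). The drug transporter ATR1 had 85.2 and 61.1 ppm against 24.8 and 16.0 ppm, a log2 ratio of 1.83 (SE 0.33), and RFS1, a flavodoxin-like protein, had 112 and 110.5 ppm against 32.4 and 11.29 ppm (2.50, SE 0.28).

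The cell surface lists were mixed, with 45.45% of cell wall genes and 20% of Golgi mannosyltransferases called against 19.4% over all genes. Median coverage was 550 ppm for the cell wall list and 166 ppm for the Golgi list. Among all genes at 500 ppm and more 35.5% were called, and 22% among those at 100 to 200 ppm. Of 22 cell wall genes 6 favoured the S. cerevisiae allele and 4 the S. paradoxus allele, with TIR3 at 1 end of the list and CWP2 at the other. CWP2, a major mannoprotein of the wall, had 2775 and 2585 ppm from S. cerevisiae against 6827 and 7658 ppm from S. paradoxus. The alleles did not overlap, and the log2 ratio was -1.43 (SE 0.10, adjusted p = 2.42e-44 by limma). Unmasked lengths of CWP2 were 128 bases for S. cerevisiae and 157 for S. paradoxus, which this ratio does not take out. TIP1, a cold-shock mannoprotein, had 167 and 174 ppm against 67.3 and 63.0 ppm, a log2 ratio of 1.38 that became 0.88 once the unequal unmasked lengths of 389 and 274 bases were taken out. Among 20 Golgi mannosyltransferases 1 favoured S. cerevisiae, MNT3 (1.37), and 3 favoured S. paradoxus, led by KTR5 (-1.80) and KTR4 (-1.21). KTR4 had 103 and 98.3 ppm against 233 and 232 ppm, so the alleles were clearly apart in both replicates.

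Carbon metabolism showed calls in both directions. Its lists are read against 19.4% called over all genes and 28.2% among genes at 200 to 500 ppm. Of 13 glycolysis and fermentation genes 3 favoured the S. cerevisiae allele and 5 the S. paradoxus allele. GPD1, glycerol-3-phosphate dehydrogenase of glycerol synthesis, had 512 and 589 ppm from S. cerevisiae against 185 and 166 ppm from S. paradoxus, a log2 ratio of 1.64 (SE 0.15). BDH2, a putative butanediol dehydrogenase, had 37.2 and 54.2 ppm against 6.71 and 12.3 ppm, a log2 ratio of 2.24 (SE 0.44). ADH5, an alcohol dehydrogenase isozyme, had 14.5 and 6.18 ppm against 66.9 and 93.5 ppm, a log2 ratio of -2.99 (SE 0.34). For these 3 enzymes, named for the largest called ratios of the list, the alleles did not overlap, which is a description only. Of 14 genes of the tricarboxylic acid (TCA) cycle and its isozymes, 3 favoured the S. cerevisiae allele and 2 the S. paradoxus allele. MDH3, peroxisomal malate dehydrogenase, had 330 and 283 ppm against 88.1 and 104 ppm (log2 ratio 1.67, SE 0.18). The subunits of succinyl-CoA ligase differed in opposite directions, with LSC1, the alpha subunit, at 1.03 and LSC2, the beta subunit, at -0.82, the second call being lost with replicate 1 alone (-0.69). Of 24 respiratory chain or ATP synthase genes 4 favoured the S. cerevisiae allele and 5 the S. paradoxus allele, and none of these 9 calls was made from each replicate alone. Of 11 trehalose and glycogen genes 1 favoured the S. cerevisiae allele and 2 the S. paradoxus allele, with GLG2, a glycogenin, at 1.53, a call lost with replicate 1 alone (1.06). Of 20 genes listed for hexose transport 4 were in the table and 3 were tested. These were the sensor genes SNF3 and RGT2 and the regulator STD1, not transporters, and none was called. Of 11 phosphate genes only the kinase gene PHO85 was called, at -0.82, lost with replicate 1 alone (-0.67).

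**Figure D3:**
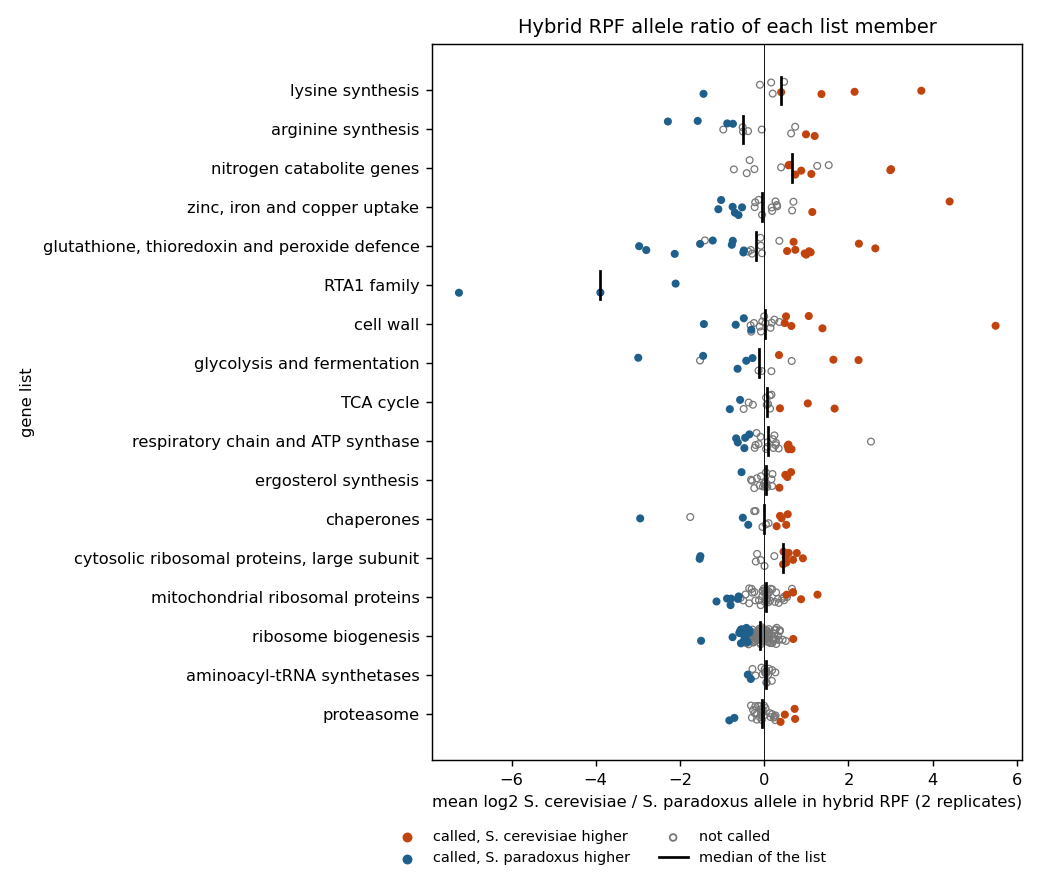
Mean log2 ratio of the S. cerevisiae over the S. paradoxus allele in hybrid RPF for each tested member of 17 gene lists, with called members filled (orange, S. cerevisiae higher, and blue, S. paradoxus higher), others open and the list median as a bar. Over all genes tested 19.4% were called, 9.08% for S. cerevisiae and 10.3% for S. paradoxus. All 3 members of the RTA1 family lie on the S. paradoxus side. Of 14 nitrogen catabolite genes 7 were called, all on the S. cerevisiae side. Of 95 ribosome biogenesis genes 18 were called, a share near that over all genes, and 17 of these lie on the S. paradoxus side. The points of YLR046C, GAP1 and other genes with a column at 0 depend on the pseudocount.

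Genes of the translation machinery are among the most ribosome-covered in yeast, and small differences pass the test there. Of 15 large-subunit genes of the cytosolic ribosome in the table, 8 favoured the S. cerevisiae allele and 2 the S. paradoxus allele, with a median log2 ratio of 0.45, and of 6 small-subunit genes 3 were called, all higher for S. cerevisiae. The share called was 19.4% over all genes and 35.5% among genes at 500 ppm and more. Of the 10 large-subunit calls 2 were made from each replicate alone, and of the 3 small-subunit calls 1 was. RPL24A, which had 1778 and 1651 ppm against 1197 and 686 ppm, had a log2 ratio of 0.92 and was not called with replicate 1 alone (0.57). RPS25B had 1270 and 1297 ppm against 625 and 626 ppm, with near-identical replicates and a log2 ratio of 1.04 (SE 0.12, adjusted p = 1.73e-15 by limma). The paralog RPS25A read 0.67 and -0.08 in the replicates, and its call at 0.30 did not stand from either. RPL9B (-1.52) had few unmasked bases, 103 for the S. cerevisiae allele and 220 for the S. paradoxus allele. Per unmasked base its ratio was -0.42 (adjusted p = 0.00968 by limma). Most ribosomal protein genes come in near-identical pairs, so reads of paralogs may be split between them and these values are uncertain.

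Of 95 ribosome biogenesis genes tested, 1 favoured the S. cerevisiae allele and 17 the S. paradoxus allele. The share called, 18 of 95, was near the background of 19.4%. The list had a median coverage of 394 ppm, and 28.2% of genes at 200 to 500 ppm were called. The median log2 ratio was -0.09 against -0.02 for all genes tested. With each replicate centred on its median the split was 3 against 15. MRT4, which is involved in assembling the ribosomal stalk, led the list with 409 and 359 ppm from S. cerevisiae against 992 and 1185 ppm from S. paradoxus (log2 ratio -1.50, SE 0.13, adjusted p = 3.83e-29 by limma). MRT4 was the only call of this list made from each replicate alone. NOP15, of large-subunit assembly, had a ratio of -0.75 that was lost with replicate 2 alone (-0.67), and NOC4, of small-subunit export, was the only call for S. cerevisiae at 0.69, lost with either replicate alone. Of 34 translation factors 3 favoured the S. cerevisiae allele and 7 the S. paradoxus allele. HCR1 of initiation factor eIF3, at -0.59, led them. Of 18 aminoacyl-tRNA synthetases 2 were called, TYS1 at -0.39 and MES1 at -0.32. Median coverage of the 2 lists was 737 and 1278 ppm, and 35.5% of genes at 500 ppm and more were called. None of these 12 calls was made from each replicate alone. Of 49 mitochondrial ribosomal proteins 5 favoured the S. cerevisiae allele and 6 the S. paradoxus allele, with RSM27 at 1.27, lost with replicate 1 alone (0.77), and MRPL28 at -1.13. Of these 11 calls 1 was made from each replicate alone.

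The lists that follow are read against the 19.4% called over all genes. The share called rose with coverage, to 28.2% at 200 to 500 ppm and 35.5% at 500 ppm and more. Median coverage was 314 ppm for the proteasome, 714 ppm for the ergosterol and 1285 ppm for the chaperone list. Of 32 proteasome genes 4 favoured the S. cerevisiae allele and 2 the S. paradoxus allele (18.8% called), led by RPN3 of the lid (0.73) and the assembly factor UMP1 (-0.83), and none was called from each replicate alone. Of 21 ergosterol genes 4 favoured S. cerevisiae, led by ERG27 (0.64), and 1 favoured S. paradoxus, ERG28 (-0.54), likewise with none called from each replicate alone. Of 14 chaperone genes 5 favoured the S. cerevisiae allele and 3 the S. paradoxus allele, and HSP12, a membrane stress protein with 2.13 and 0.694 ppm against 12.1 and 14.2 ppm, was the only one called from each replicate alone (log2 ratio -2.94, SE 0.94). Of 8 polyamine genes 2 were called, both higher for S. cerevisiae and both from each replicate alone. They were TPO4, a polyamine exporter, with 119 and 129 ppm against 46.5 and 49.3 ppm (1.37), and SPE2. SPE2, S-adenosylmethionine decarboxylase, had 258 and 234 ppm against 121 and 96.3 ppm (1.18). Its ratio became 0.85 once the unequal unmasked lengths of 920 and 730 bases were taken out. Of 28 cell cycle genes only the cyclin genes CLN3 (-1.06) and CLN2 (0.66) were called, and both calls were lost with replicate 1 alone (-0.80 and 0.45). Of 5 histone and silencing genes the variant histone HTZ1 (-0.58) and the linker histone HHO1 (-0.49) were called, but HTZ1 read 0.07 in replicate 1 and the HHO1 call was lost with either replicate alone. Of 9 haploid and mating genes tested only STE4, a G protein subunit, was called, at 4.99 and 15.01 ppm against 2.65 ppm and a column at 0, and that call was lost with replicate 1 alone.

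Calls depended on coverage. Of 245 genes at 3 to 10 ppm 8.16% were called and the smallest called fold was 4.76, whereas of 431 genes at 500 ppm and more 35.5% were called and the smallest called fold was 1.21. The deposited table marks genes with a TATA box in the promoter, and 34.1% of 496 marked genes were called against 18.1% of 2971 unmarked ones. Marked genes also had higher coverage, with a median of 136 ppm against 96.2 ppm. Within each of 5 coverage classes the share called was higher among the marked genes, from 20% against 12.1% at 20 to 50 ppm to 50% against 29.4% at 500 ppm and more. Of the called marked genes, 85 favoured the S. cerevisiae allele and 84 the S. paradoxus allele.

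**Figure D4:**
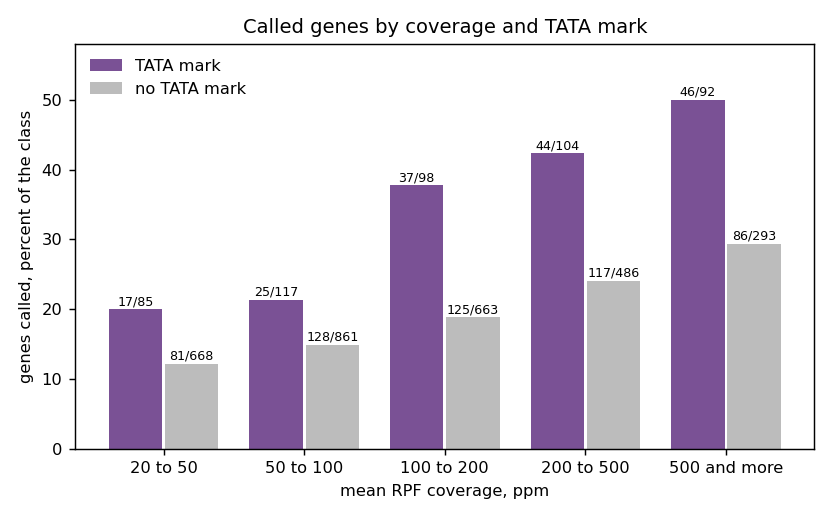
Percent of genes called different between the alleles in hybrid RPF, by mean coverage in ppm, for genes with (purple) and without (grey) the TATA mark of the deposited table, with called and total genes above each bar. The marked bar is the taller one in all 5 classes, from 20% against 12.1% to 50% against 29.4%.

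Genes were also split into 4 equal classes of coding divergence between the species. The least diverged class had 25.4% called and the most diverged 14.1%, and median coverage was 203 ppm in the former and 47.0 ppm in the latter. The shares were 11.95% and 11.65% at 3 to 50 ppm, 18.9% and 15.7% at 50 to 200 ppm, and 33.8% and 21.4% at 200 ppm and more. The middle classes had 26.9% and 34.8% at 200 ppm and more, so the shares did not fall in order of divergence there. By promoter divergence the least and the most diverged class had 18.2% and 21.4% called over all genes. The shares were 13.6% and 12.19% at 3 to 50 ppm, 12.9% and 22.5% at 50 to 200 ppm, and 28.98% and 36.4% at 200 ppm and more, so the order of these classes turned in the lowest coverage. The middle classes of promoter divergence had 28.85% and 25.5% at 200 ppm and more, so the shares did not rise in order there. The number of unmasked bases mattered where it differed between the alleles. Of 115 genes whose alleles differed by more than 10% in unmasked length 46.1% were called, and 40 of the 53 calls were higher for the allele with more unmasked bases. After the unequal length was taken out, 35.7% were called and 20 of 41 were higher for that allele.

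Genome position was described without a test. Median log2 ratios of the 16 chromosomes ran from -0.10 on chromosome XI to 0.06 on chromosome VI. The median of chromosome VI was -0.05 among genes of at least 50 ppm. Of 245 genes tested on chromosome XI, 14 favoured the S. cerevisiae allele and 32 the S. paradoxus allele. The share called there was 18.8%, against 19.4% over all genes. Over all genes 9.08% favoured S. cerevisiae and 10.3% favoured S. paradoxus. The chromosome XI median read -0.12 and -0.14 in replicates 1 and 2, and -0.03 in each mRNA replicate. Among 1086 pairs of neighbouring genes that are transcribed away from each other, 50.2% had the same sign of the ratio, and of the 38 such pairs with both genes called 20 did.

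Called RPF differences mostly had the sign of the mRNA difference in the same hybrid. The mean mRNA allele ratio had the same sign for 764 of 853 called genes (89.6%) against 68.7% of all tested genes, and for 85 of the 88 past 4-fold. The difference between the RPF and mRNA ratios was itself called for 65 genes (1.48%) by limma with weights per kind of library, and for 9 without weights. Of the 65, 49 were also called in RPF, 25 of them higher for S. cerevisiae. FAT3 had log2 mRNA ratios of -0.93 and -0.48 in the replicates against -5.46 and -4.79 in RPF. YOL014W, a gene without a known role, had 1.28 and 15.03 ppm from S. cerevisiae against 99.2 and 117 ppm from S. paradoxus in RPF, with mRNA ratios of -0.58 and -0.23. BRE4 had mRNA ratios of -0.60 and -0.31, and YLR046C of -1.32 and -1.36. For these 4 genes the S. paradoxus allele was the higher one in both kinds of library, and by more in RPF. Without weights the difference stayed called for FAT3 and YLR046C and was lost for YOL014W (adjusted p = 0.0715 by limma) and BRE4 (adjusted p = 0.0553 by limma). In contrast RTA1 had mRNA ratios of -4.26 and -4.14, close to its RPF ratios of -4.23 and -3.55.

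**Figure D5:**
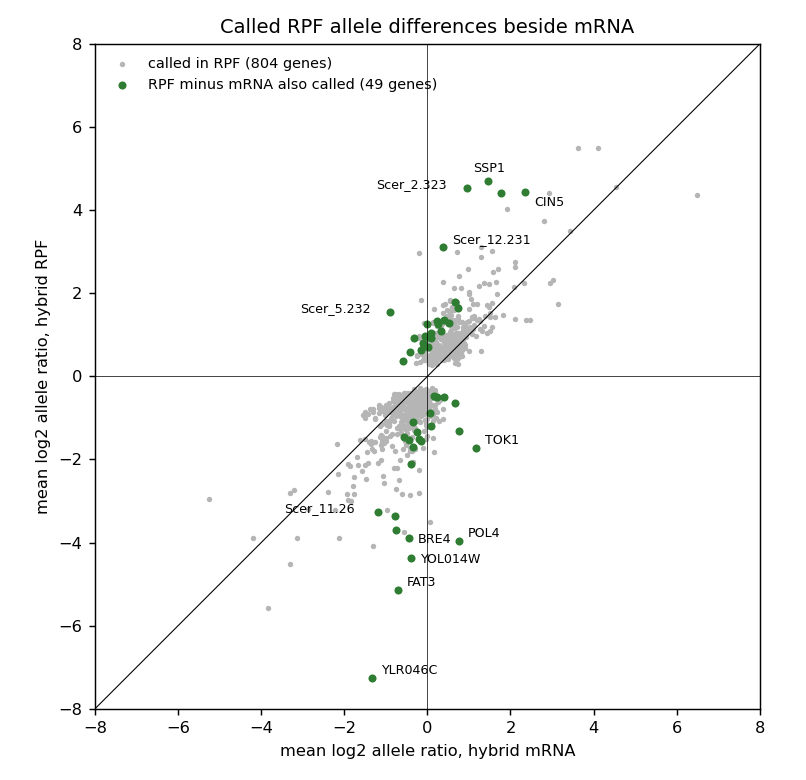
Mean log2 allele ratio in hybrid mRNA on the x axis and in hybrid RPF on the y axis for the 853 genes called in RPF, with the line of equality. Green points are the 49 genes whose RPF minus mRNA difference was also called by the weighted fit. FAT3, YOL014W, BRE4 and YLR046C lie far below the line, and CIN5, SSP1 and Scer_2.323 far above it, while YLR046C, POL4 and SSP1 had a column at 0.

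Parental RPF held the same direction for many of the called genes. The mean parental RPF ratio of S. cerevisiae over S. paradoxus had the sign of the hybrid ratio for 684 of the 853 called genes (80.2%), against 63.5% of all tested genes, and 617 had it in both parental replicates. FAT3 read -5.32 and -5.62, YOL014W -5.43 and -6.95, BRE4 -4.06 and -4.25 and TIR3 3.23 and 3.44 in parental RPF. LYS21 was lower there at 1.43 and 1.55, against 4.31 and 3.15 in the hybrid. ZRT1 had the opposite sign in the parents, at -1.75 and -1.68 against 3.08 and 5.73 in the hybrid, and so did ARN2, at -1.10 and -1.53 against 1.33 and 0.95. HSP12 was higher for S. cerevisiae in the parents at 1.82 and 3.34. CIN5 read -0.68 and -0.21 in the parents against 4.85 and 4.04 in the hybrid. These differences between hybrid and parents were not tested.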

How the data were processed

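The submitters sequenced RPF and poly-A selected mRNA of the hybrid and its parents, and their processing notes name CASAVA 1.8.2 and Bowtie 0.12, while genome builds are not given in the sources used here. Values in the deposited table are, per gene and allele, coverage signal summed over unmasked bases, and the S. paradoxus columns were scaled by the authors to the S. cerevisiae total, since all their values are whole multiples, within 0.01, of 1.0085 in replicate 1 and 1.00798 in replicate 2. Divergence values are deposited as fractions, and the TATA mark and the ratio of nonsynonymous to synonymous change came from the same table. Unmasked lengths are numbers of bases deposited per allele. Of the other columns, 28 with per-sample values were not used. The table prints S. cerevisiae systematic names, and 4401 of 4402 matched the R64 annotation, which gave coordinates and windows.

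Each of the 4 hybrid RPF columns was expressed in ppm of its sum, with 0.5 as pseudocount, and a log2 allele ratio was computed per replicate, so that folds understate changes of low genes. Genes with a mean of at least 3 ppm (4394) entered limma 3.58.1 in R 4.3.3, with a prior spread that follows coverage, and p-values were adjusted by Benjamini-Hochberg over all of them. The prior outweighed the 1 residual degree of freedom, so the spread was that of genes of like coverage. Ratios of RPF and mRNA were compared with arrayWeights per kind of library. The fit was tested on simulated data. The series text calls the samples biological replicates. The p-values rest only on the spread between these 2 samples over genes of like coverage, and not on that of the gene itself. Alleles were paired within a replicate because they come from 1 library.

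Named genes were the 12 highest and 12 lowest called ratios at 50 ppm or more with similar unmasked lengths, up to 3 called members of each of 33 lists with no column at 0, all members of lists of 10 or fewer, called genes with a column at 0 at 50 ppm or more, label checks, and up to 10 genes each way whose RPF and mRNA ratios differed. The members and lists were chosen with earlier results of these data known. Genes named for the size of their ratio were picked from the same 2 replicates, so the separation of their alleles is only a description. 1 gene whose name matched the ribosomal pattern but encodes a ribonuclease P subunit was removed from that list after its values were seen. Some results are not reported here.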

Additional observations from a re-analysis of the deposited data

Results flagged for a closer look

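The RPF minus mRNA difference of the log2 allele ratio was called, by limma with weights per kind of library and Benjamini-Hochberg adjustment, for 24 of the named genes that were also called in RPF. They include up to 10 genes each way that were named for this difference, so their number is not a count over all genes. Without weights 6 of the 24 were called, namely YLR046C, FAT3, Scer_11.26, Scer_12.231, MRT4 and KTR4. YLR046C, POL4 and SSP1 had an RPF column at 0, and for them no size is given because it depends on the pseudocount. Toward S. paradoxus, the RPF minus mRNA log2 ratio was -4.42 for FAT3, -3.96 for YOL014W, -3.43 for BRE4, -2.95 for Scer_15.628, -2.88 for TOK1, -2.58 for SPS4, -2.09 for Scer_11.26, -1.71 for RSB1, -1.30 for KTR4 and -1.29 for MRT4. Toward S. cerevisiae it was 3.59 for Scer_2.323, 2.72 for Scer_12.231, 2.62 for ZRT1, 2.45 for Scer_5.232, 2.09 for CIN5, 1.28 for RSM27, 1.14 for NPC2, 1.10 for Scer_15.50, 0.96 for LYS4, 0.96 for LSC1 and 0.90 for GPD1. For 19 of the 24 the mRNA ratio had the sign of the RPF ratio in both replicates. The exceptions were POL4, TOK1, Scer_5.232, KTR4 and RSM27, whose mRNA ratios had the opposite sign in both replicates, although those of RSM27 were -0.02 in each. TOK1, a potassium channel gene, had 9.53 and 5.19 ppm from S. cerevisiae against 18.6 and 31.7 ppm from S. paradoxus in RPF, and its RPF call was lost with replicate 1 alone.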

How the results depend on the processing

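Against 853 calls, counts of 816 to 861 were found with another pseudocount, a minimum of 20 ppm, centred ratios, a correction for unmasked bases, a robust prior spread or no gene with a column at 0. A spread shared with parental RPF gave 652 and a spread shared also with hybrid mRNA 935. Without a filter on coverage limma called 0 genes, with 0 in each direction and 1025 at an unadjusted p under 0.05. Against a difference of at least 1.5-fold, 133 were called, 66 toward S. cerevisiae and 67 toward S. paradoxus. Leaving out 1 replicate, with the spread of parental RPF, gave 361 to 873 calls, 172 to 413 toward S. cerevisiae and 189 to 460 toward S. paradoxus, and the low count was that without replicate 2. With no replicate block, that is without pairing the alleles of a replicate, 415 were called (208 and 207), all among the 853. The sign turned for HTZ1 without replicate 2 (0.066) and for RPS25A without replicate 1 (-0.077). Of 114 named called genes, 87 stayed called without replicate 1, 71 without replicate 2 and 113 with the robust spread, ZRT1 being the exception. RPF against mRNA differences fell from 65 to 9 genes without weights. The spread over all 4 settings was not run, because the parental mRNA columns could not be matched to single samples. The further settings chosen after seeing the data were the robust spread, the spread with hybrid mRNA and the exclusion of columns at 0. The cause of these changes was not tested.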
